A study of Mus musculus with 6 samples.

Results

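The genes described here are those whose symbols belong to classical transcription-factor families, among them Sox, Tfap2, Tead, Irx, Nfi, Klf, Tcf and the Zfp zinc fingers. They were picked by the start of the gene symbol alone, from the genes that the authors listed as differing between oestrogen receptor α-deficient and wild-type mammary epithelial cells (MECs). The symbol pattern, which was chosen with earlier results of these data known, took 37 of the 651 listed genes. All 37 had a lower mean in ERα-/-.GFP+ MECs than in WT.GFP+ MECs, by between 2.15-fold for Maff and 15.5-fold for Duxbl1 (interval 4.95 to 77.9, from 3 reads in ERα-/-.GFP+), and 0 had a higher mean. Of all listed genes 86.9% were lower.

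The samples were WT.GFP+ MECs and ERα-/-.GFP+ MECs, which carry a germline deletion of ERα, from littermates on a C57Bl6 background. Cells of both genotypes carried GFP under the chicken β-actin promoter, which is broadly active but may differ in strength between cell types. WT.GFP+ cells were delivered through the duct into 1 gland and ERα-/-.GFP+ cells into the gland on the other side of female NSG (NOD.Cg-Prkdcscid Il2rgtm1Wjl/SzJ) mice, an immunodeficient strain. Cells were sorted by GFP once the hosts were pregnant, from glands pooled for cell suspension. RNA from 3 WT.GFP+ and 3 ERα-/-.GFP+ samples was amplified and sequenced. The ages of donors and hosts are not given in the sources used here. The question was which genes depend on ERα in the grafted epithelium during pregnancy.

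The deposited tables hold 2 means per genotype for each listed gene, of the raw counts and of the log2 CPM, and no value of a single sample. The spread between samples can therefore not be given, no test between the genotypes was run, and each interval below is an exact Clopper-Pearson interval at 95%, or for a difference between 2 genes an exact conditional one, that covers counting error only. Reads amplified by PCR without molecular identifiers are not independent molecules, so the true error is wider. The tables name the groups only as selections, and the table that holds the members is named for the opposite direction. The genotypes were assigned by the direction that the study states for most genes, so every direction given here comes from the study. Esr1 itself was in neither table and could not check it. Each listed gene had passed a change of more than 2-fold and the false discovery rate that the authors set, so every member had to differ. The mean counts correspond to a depth of about 27190483 reads per WT.GFP+ sample and 29326709 per ERα-/-.GFP+ sample.

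Transcription factors bind short DNA motifs through a folded domain, and genes with the same domain form families whose members often recognise similar motifs. ERα is itself a ligand-activated factor of the nuclear receptor family. In the mammary gland it is found in a subset of luminal cells, the inner layer of the duct, whereas the outer layer consists of contractile basal cells. Some of the members are known from these layers: Id4 and Tcf7l1 have been described in basal cells, Sox9 in progenitor cells and Tfap2c in luminal cells.

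Sequence is shown for the members with the largest folds. The 3 members with the largest folds, Duxbl1, Duxbl2 and Duxbl3, are copies of a double homeobox gene on chromosome 14, and in the GENCODE M21 annotation of GRCm38 their 1050 coding bases differed at 0 positions in each pair. The stretch below is the first 90 coding bases that all 3 share, with the start codon in capitals. The copies lie on the plus strand at chr14:25978577-25990088, chr14:26118349-26129763 and chr14:26257962-26269436.

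Duxbl1, Duxbl2 and Duxbl3: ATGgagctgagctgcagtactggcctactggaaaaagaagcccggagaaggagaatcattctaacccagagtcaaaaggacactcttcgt

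The promoters of Id4 and Irx4 are shown because these genes had the largest folds of mean counts of the members with a mean count of at least 100 in WT.GFP+. With the difference of the mean log2 CPM, Foxj1 came before Id4. Both windows are the 250 bases before the RefSeq start on the plus strand of GRCm38.p6, at chr13:48260866-48261115 for Id4 and at chr13:73260247-73260496 for Irx4, where the GENCODE start lies within the window. Capitals mark GC boxes (GGGCGG or, on the other strand, CCGCCC), the motif of Sp and Klf factors.

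Id4: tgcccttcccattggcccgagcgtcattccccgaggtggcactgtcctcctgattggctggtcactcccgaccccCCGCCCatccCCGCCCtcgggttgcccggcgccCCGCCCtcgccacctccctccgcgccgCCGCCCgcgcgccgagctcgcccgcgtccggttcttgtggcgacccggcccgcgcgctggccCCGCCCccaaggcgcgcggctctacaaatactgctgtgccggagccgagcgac

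Irx4: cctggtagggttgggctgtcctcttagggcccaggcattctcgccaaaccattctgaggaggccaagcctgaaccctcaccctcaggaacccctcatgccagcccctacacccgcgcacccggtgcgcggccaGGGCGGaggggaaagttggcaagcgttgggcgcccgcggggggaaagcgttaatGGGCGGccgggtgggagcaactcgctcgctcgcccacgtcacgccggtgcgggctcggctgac

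The Id4 window held 5 GC boxes and had a GC content of 75.6%. The Irx4 window held 2 and had a GC content of 68.8%. Across all 32851 RefSeq windows, which reach 50 bases past the start, 35.7% held a GC box, and the median GC content before the start was 52.4%. The full palindromic oestrogen response element was in neither window and in 0.07% of all windows, which says only that these letters are not in this stretch. RefSeq windows were given for 20 of the 37 members, or 54.05%, so a count of motifs or GC content over the whole set would be void and is not given.

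Beyond the direction, the members were compared with the whole list by the size of the fold. More than 3-fold lower were 15 members, or 40.5%, against 54.7% of all listed genes and 62.9% of those that were lower. More than 4-fold lower were 5 members, or 13.5%, against 24.3% of all listed genes and 27.9% of those that were lower. Of these 5 members, 3 were the Duxbl copies. As all members were lower, the share among the lower genes is the like one. The members' median log2 fold, ERα-/-.GFP+ over WT.GFP+, was -1.54, which is 2.91-fold lower, and the median of the 566 listed genes that were lower was -1.74, or 3.33-fold. As the tables hold only genes past a fold threshold, these shares and medians describe the list and test nothing. In bulk RNA, fewer cells of a type and less RNA per cell cannot be told apart.

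**Figure D1:**
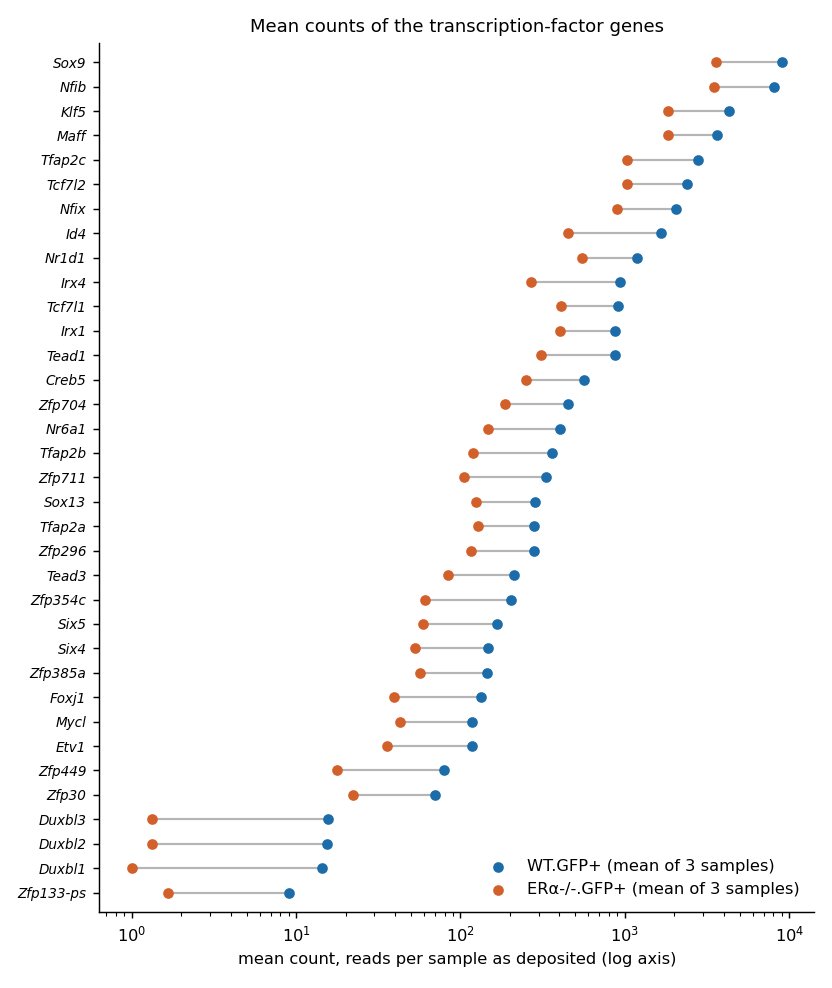
Mean counts as deposited (reads per sample, log axis) of 35 members, in order of the WT.GFP+ mean. Each point is the authors' mean of 3 samples, and the line joins both genotypes of a gene. The ERα-/-.GFP+ mean lies to the left for every gene, from Sox9 with 9020 against 3591 reads down to Zfp133-ps with 9 against 1.67.

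In WT.GFP+ MECs 0.171% of all reads fell on the members, and in ERα-/-.GFP+ MECs 0.0653%, a log2 fold of -1.39. Sox9 and Nfib alone supplied 36.9% of the members' reads in WT.GFP+. Per length of annotated exon and library size (RPKM, reads per kilobase and per 1e+06 reads), the level of Sox9 stood at 80.2 in WT.GFP+, ahead of Maff at 51.8, Klf5 at 30.5, Tfap2c at 28.0 and Nfib at 20.0. The lowest levels were those of the Duxbl copies and Zfp133-ps, at 0.106 to 0.116 RPKM in WT.GFP+. In ERα-/-.GFP+ the level of Sox9 was 29.6 RPKM, with Tfap2c at 9.61 and Nfib at 7.99.

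Among the HMG box factors, which bend DNA in the minor groove, Sox9 had the most reads of all members. Sox9, at chr11:112782224-112787760, is a regulator of progenitor cells in many epithelia. It had a mean count of 9020 reads in WT.GFP+ against 3591 in ERα-/-.GFP+, a log2 fold of -1.44 (interval -1.47 to -1.41). Sox13, a SoxD factor that lacks a transactivation domain, had 283 and 124 reads and a log2 fold of -1.30. Tcf7l1 and Tcf7l2 are the nuclear partners of β-catenin in Wnt signalling, with Tcf7l1 known mostly as a repressor. Tcf7l2 had 2377 reads in WT.GFP+ against 1037 in ERα-/-.GFP+ (log2 fold -1.31), and Tcf7l1 had 913 and 407 (log2 fold -1.27). The folds of the 4 genes lay close together, and the difference between Tcf7l2 and Tcf7l1 was -0.03 on the log2 scale (interval -0.15 to 0.08).

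The AP-2 family was listed with 3 of its 5 annotated genes. These factors bind GC-rich sites and act in skin, neural crest and breast epithelium. Tfap2c, which encodes AP-2γ, a cofactor of ERα at many of its binding sites in breast cancer cells, had 2797 reads in WT.GFP+ against 1037 in ERα-/-.GFP+, a log2 fold of -1.54 (interval -1.60 to -1.48). Tfap2b had 358 and 119 reads and a log2 fold of -1.70. Tfap2a had 279 and 127 reads and a log2 fold of -1.25. The fold of Tfap2a was the smallest of the 3 beyond counting error. The difference Tfap2b minus Tfap2a was -0.45 on the log2 scale (interval -0.70 to -0.20) and Tfap2c minus Tfap2a was -0.29 (interval -0.48 to -0.11), whereas the interval for Tfap2b minus Tfap2c held 0 (-0.35 to 0.03). Other annotated genes overlapped 14.6% of the exon bases of Tfap2a, so its reads are less certain than theirs.

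Tead1 and Tead3 encode TEA domain factors, which bring the Hippo pathway coactivator Yap to DNA. Tead1 had 865 reads in WT.GFP+ against 311 in ERα-/-.GFP+, a log2 fold of -1.59 (interval -1.70 to -1.48). Tead3 had 212 and 84 reads and a log2 fold of -1.44. The difference between them held 0 (interval -0.38 to 0.10). Yap1, which the symbol pattern does not take, was listed as well with 2232 and 976 reads and a log2 fold of -1.30.

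The nuclear factor I genes Nfib and Nfix encode factors that act in development and in milk-gene transcription. Nfib had 8115 reads in WT.GFP+ against 3506 in ERα-/-.GFP+ (log2 fold -1.32), and Nfix had 2041 and 898 (log2 fold -1.29). Their folds were nearly equal, with a difference of -0.03 (interval -0.10 to 0.05).

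Homeodomain genes held both the largest folds and some of the smaller ones. Irx1 and Irx4 belong to the Iroquois family of patterning factors and lie 1296756 bases apart on chromosome 13 of GRCm38, with Irx2, which was not listed, between them. Irx4 had 938 reads in WT.GFP+ against 270 in ERα-/-.GFP+, a log2 fold of -1.90 (interval -2.02 to -1.79). Irx1 had 867 and 401 reads and a log2 fold of -1.22. This was the widest gap among the 10 pairs of relatives compared, at -0.68 for Irx4 minus Irx1 (interval -0.83 to -0.53). Per kilobase of exon the 2 genes had 13.2 and 12.2 RPKM in WT.GFP+ and 3.54 and 5.21 in ERα-/-.GFP+.

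Six4 and Six5, homologues of the fly gene sine oculis with roles in muscle and sensory organs, had log2 folds of -1.57 and -1.62, with 146 and 168 reads in WT.GFP+ and 53 and 59 in ERα-/-.GFP+. No Hox gene was listed, of 39 annotated.

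Duxbl1, Duxbl2 and Duxbl3 had mean counts of 14.3, 15.3 and 15.7 in WT.GFP+ and of 1, 1.33 and 1.33 in ERα-/-.GFP+. The log2 fold of Duxbl1 was -3.95 with an interval of -6.28 to -2.31, as it rests on 43 reads in 3 WT.GFP+ samples and 3 reads in 3 ERα-/-.GFP+ samples. Between 89.1% and 100% of the 85-base windows of their transcripts also occur in the other copies, so the 3 entries are not 3 independent genes. At 100%, for Duxbl2, no read within its annotated transcripts could be unique to it. The interval of Duxbl1 takes its reads as its own, although they may be shared. The authors' mean log2 CPM of Duxbl1 in ERα-/-.GFP+ was -4.48. Of the possible splits of its 3 reads, 1 read in each of the 3 samples came closest, at -4.46. That calculation assumes equal libraries and a prior count, so it gives no value of a single sample.

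**Figure D2:**
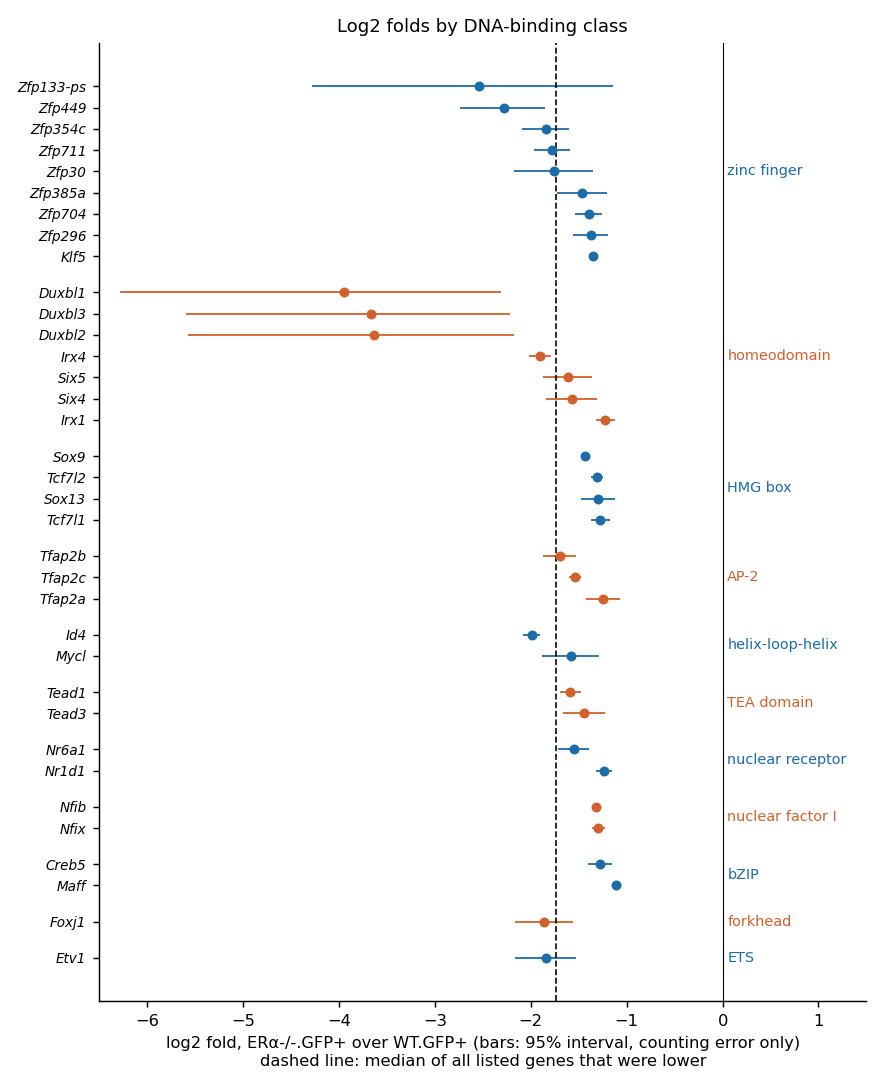
Log2 fold of 35 members, ERα-/-.GFP+ over WT.GFP+, grouped by structural class. Bars are 95% intervals for counting error only, and the dashed line at -1.74 is the median of all listed genes that were lower. The Duxbl copies and Zfp133-ps stand out with wide bars, and the others shown run from -2.28 for Zfp449 to -1.11 for Maff.

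Among the helix-loop-helix genes, Id4 had the larger fold. Id proteins lack the basic region that contacts DNA and act by sequestering basic helix-loop-helix partners, and Id4 is known from mammary basal cells, where it is needed for ductal growth. Id4 had 1664 reads in WT.GFP+ against 452 in ERα-/-.GFP+, 3.97-fold lower (interval 3.74 to 4.22). This was the largest fold of mean counts among members with at least 100 reads in WT.GFP+, but with the difference of the mean log2 CPM Id4, at -1.86, came after Irx4 at -1.97 and Foxj1 at -1.89. Mycl, a Myc family gene, had 118 and 42.7 reads and a log2 fold of -1.58. The other 3 annotated Id genes were not listed.

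The classical zinc fingers were led in reads by Klf5, a Krüppel-like factor of proliferating epithelial cells. It had 4312 reads in WT.GFP+ against 1827 in ERα-/-.GFP+, a log2 fold of -1.35 (interval -1.39 to -1.30). The 8 Zfp genes ranged from -2.54 for Zfp133-ps to -1.37 for Zfp296. Zfp449 had 79.7 reads in WT.GFP+ against 17.7 in ERα-/-.GFP+ (log2 fold -2.28), Zfp354c 203 and 61, Zfp711 332 and 105, and Zfp30 70 and 22.3. Zfp385a, which binds RNA, had 145 and 56.7 reads, Zfp704 453 and 186, and Zfp296 279 and 116. Zfp133-ps is annotated as a pseudogene and had 9 and 1.67 reads. The exons of Zfp704 and Zfp296 overlap other genes over 16.6% and 12.9% of their bases, for Zfp296 with Gemin7, and the library kit did not mark strand.

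Nr1d1 and Nr6a1 were the only nuclear receptors that the pattern took. Nr1d1 encodes Rev-erbα, a haem-binding repressor of the circadian clock, and had 1191 reads in WT.GFP+ against 545 in ERα-/-.GFP+ (log2 fold -1.24). Nr6a1 encodes the orphan receptor GCNF and had 400 and 147 reads (log2 fold -1.55). The difference Nr6a1 minus Nr1d1 was -0.31 on the log2 scale (interval -0.50 to -0.13). Exons of Thra, on the opposite strand, cover 8.55% of Nr1d1.

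The remaining classes had 1 or 2 listed genes each. Maff, a small Maf bZIP protein without a transactivation domain, had 3654 and 1829 reads and the smallest fold of all members, -1.11 on the log2 scale (interval -1.15 to -1.06). Creb5, another bZIP gene, had 565 and 251 reads (log2 fold -1.28). Foxj1, the regulator of motile cilia, had 133 and 39.7 reads (log2 fold -1.86). Etv1, an ETS factor of the PEA3 group, had 118 and 35.7 reads (log2 fold -1.84).

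Relatives within a family were compared in 10 pairs. The interval of the difference held 0 in 6 of them, which does not show that those folds are equal, and left out 0 in 4, namely Irx4 with Irx1, Tfap2b with Tfap2a, Tfap2c with Tfap2a and Nr6a1 with Nr1d1. Among the classes with 2 or more members, the median log2 folds ran from -1.19 for the 2 bZIP genes and -1.30 for the 4 HMG box genes to -1.76 for the 8 homeodomain genes and -1.78 for the 2 helix-loop-helix genes. With the Duxbl copies counted once, the homeodomain median was -1.60.

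The size of the fold moved with the level. The 6 members under 100 reads in WT.GFP+ had a median log2 fold of -3.09, or of -2.41 with the Duxbl copies counted once, and the 31 with at least 100 had -1.44, none of them below -1.99. At the same minimum, the 431 listed genes that were lower had a median of -1.61. The 10 members with at least 1000 reads had a median of -1.33, and the 169 lower genes at that level -1.52. A gene with few reads needs a larger fold to pass the authors' thresholds, so the first of these differences is built into the tables.

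**Figure D3:**
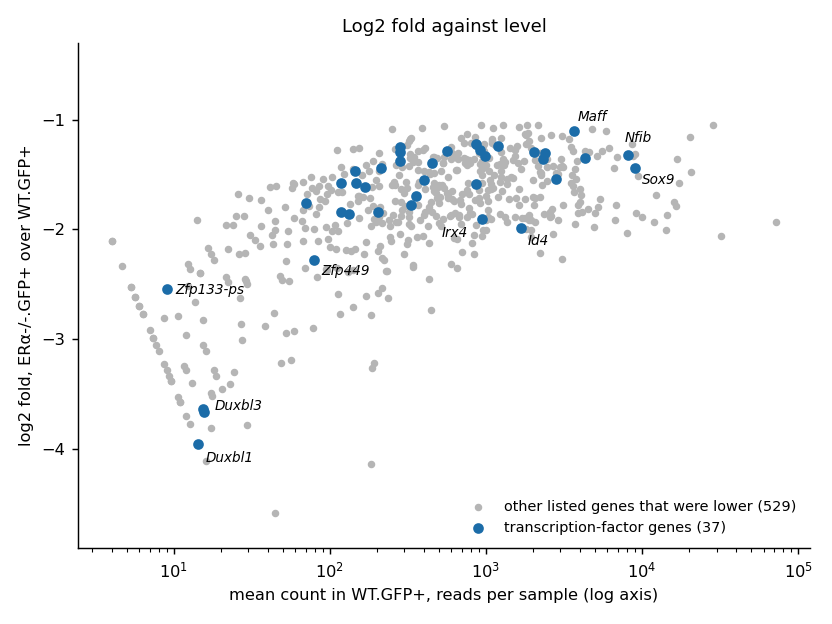
Log2 fold, ERα-/-.GFP+ over WT.GFP+, against the mean count in WT.GFP+ (reads per sample, log axis) for the 37 members and the 529 other listed genes that were lower. The members lie within the cloud of the other genes at every level. Above 1000 reads their folds run from -1.99 for Id4 to -1.11 for Maff.

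The families themselves were represented unevenly. The pattern takes 788 protein-coding genes in GENCODE M21, of which 36 were listed, or 4.57%, against 587 of 21924 protein-coding genes, or 2.68%. The Zfp genes make up 394 of the 788 and had 7 listed, or 1.78%, and the other 394 had 29 listed, or 7.36%. The 36 and the 29 take the 3 Duxbl copies as separate genes. Of 49 families, 19 had a listed gene. A family here is a shared start of the gene symbol, so the annotated numbers can take in unrelated genes. The Tead, Nfi and Tfap families were listed with 2 of 4, 2 of 4 and 3 of 6 genes (the last also takes Tfap4, which is no AP-2 gene), and the Sox and Fox families with 2 of 19 and 1 of 46. How many of these genes were expressed and tested is not known here, so the shares cannot be read as a rate among tested genes. The pattern was also chosen with earlier results of these data known, so the shares describe the list and test nothing.

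**Figure D4:**
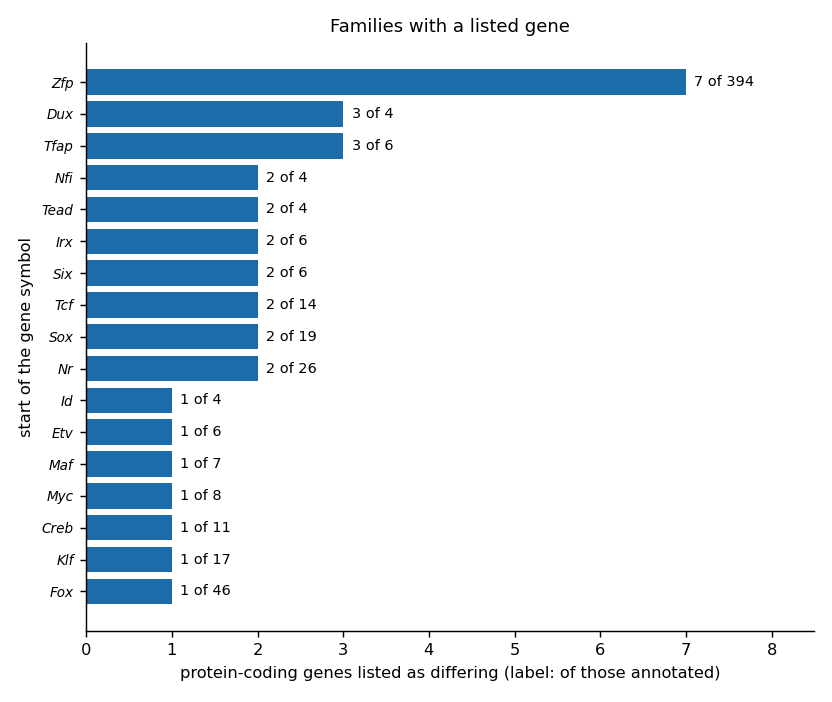
Number of protein-coding genes listed as differing in 17 of the 19 families that had any, by the start of the gene symbol, with the number annotated in GENCODE M21 beside each bar. The Zfp family has the longest bar, with 7 of 394, and the Dux, Tfap, Nfi and Tead families the largest shares. The 3 listed Dux genes are copies with the same coding bases and are not independent.

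Lists of factors, drawn up with earlier results of these data known, set the members beside other regulators, so their counts are descriptions. For scale, 2.68% of all protein-coding genes were listed, and 86.9% of the listed genes were lower. Of 19 factors known from basal mammary cells, 10 were lower and 0 higher, with a median log2 fold of -1.73. Of these 10, Id4, Tcf7l1, Tcf7l2, Irx4, Tead1, Sox9 and Nfib are members, although Sox9 and Nfib are not particular to basal cells. The other 3 were Trp63, the master regulator of stratified and basal epithelium, with 1942 reads in WT.GFP+ against 521 in ERα-/-.GFP+, Snai2 with 1895 and 560, and Mkx with 141 and 23.3. Of 20 luminal factors, 2 were lower, Tfap2c and the progesterone receptor Pgr, an ERα target, which had 129 and 36.3 reads, and 18 were not listed. Of 21 steroid and retinoid receptors Pgr was the only listed gene. Of 21 immediate early factors 2 were lower, Maff and the AP-1 subunit Fosl1, which had 4324 and 1918 reads. Of 25 lymphocyte factors the only listed gene was Batf, a bZIP factor of activated T cells, which was higher in ERα-/-.GFP+, with 726 and 1802 reads. A list of 67 factors whose symbols fall outside the pattern takes in several of these. It had 7 lower genes, which were Trp63, Snai2, Mkx, Pgr, Fosl1 and Yap1 and the clock gene Bhlhe41, and 1 higher gene, Batf.

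Markers of cell types, from lists of the same kind, are set beside the members. Among all 651 listed genes, 566 were lower and 85 higher, and 2.68% of all protein-coding genes were listed. Every direction rests on how the genotypes were assigned, so the directions of basal and immune genes are no result. Of 21 basal markers 17 were lower, with log2 folds from -2.63 to -1.60 and a median of -1.90, and the listed ones summed to 0.779% of a WT.GFP+ library and 0.206% of an ERα-/-.GFP+ library. Krt14 had 15943 and 5099 reads, and Acta2 72368 and 20416. Of 37 T and NK cell markers 14 were higher, with log2 folds from 0.97 to 1.45, and their listed genes summed to 0.317% and 0.707% of the reads. Of 20 pan-leukocyte genes 5 were higher, at 0.139% and 0.289%. Of 19 luminal markers Pgr was the only one listed, and 0 genes were listed of the 14 milk, 9 B-cell, 15 myeloid, 7 endothelial, 6 fibroblast and 5 adipocyte markers. A marker that is not listed either did not pass the thresholds of the authors or was not among the genes they kept. The part of these shifts in the lower means of the 37 members was not tested.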

How the data were processed

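RNA-seq was performed on 3 WT.GFP+ and 3 ERα-/-.GFP+ samples with single-end reads of 85 nt. The authors trimmed reads with CLC 9, aligned them to mm10 with HTSstation, and in the ASAP pipeline kept the top expressed genes and compared the genotypes with edgeR. The counter and its annotation are not given in the sources used here. The authors deposited, for genes past their thresholds, 2 means for each genotype, that of the raw counts and that of the log2 CPM. Their log2 fold changes, p-values and FDR were not used.

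Depth per genotype was estimated as the median ratio of the mean counts to the mean CPM, over genes with 1000 reads or more. This leans the depth upwards, since a mean of logs lies below the log of the mean. Folds were taken from mean counts over these depths, with a floor of 3 reads over the group. Exact 95% intervals, and exact conditional intervals for pairs, cover counting error only. The computation recovered known folds on simulated counts, which had counting error only and were scored above a minimum of reads in both groups. In ERα-/-.GFP+ the Duxbl copies and Zfp133-ps lie below that minimum. RPKM used merged GENCODE M21 exons (GRCm38), matched for all 37 members. Every matched symbol was named, except that 2 members are not reported here and enter the counts and medians only. The symbol pattern and gene lists were chosen with earlier results of these data known. Statistics were computed in scipy 1.17.1 and numpy 2.4.6 under Python 3.11.15, tables were read with pandas 2.3.3, and plots drawn with matplotlib 3.10.9.

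Alternatives were no depth scaling, the difference of the mean log2 CPM, a pseudocount of 1 read, a minimum of 10 reads in both groups, leaving out symbols that are no DNA-binding factor, and a 3-fold threshold.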

Additional observations from a re-analysis of the deposited data

How the results depend on the processing

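The number of lower members stayed at 37 without depth scaling, with the difference of the mean log2 CPM and with a pseudocount of 1 read. It came to 33 with at least 10 reads in both groups and to 34 without Id4, Zfp385a and Zfp133-ps. Both numbers are all the members that were kept. The number more than 4-fold lower, 5, fell to 1 with the minimum of 10 reads, since the Duxbl copies and Zfp133-ps leave, and was 15 at a 3-fold threshold. The median log2 fold moved from -1.54 to -1.43 without depth scaling and to -1.44 with the minimum of 10 reads. With the Duxbl copies counted once, chosen after seeing the data, 35 members were lower, 3 were more than 4-fold lower and the median log2 fold was -1.46. No scaling shifts each log2 fold by 0.11, and 14 members then left their counting interval. With the mean log2 CPM 5 left it, Id4, Tead1, Tfap2c, Sox9 and Klf5, and among the 33 members with 10 reads or more the largest shift was 0.13, for Id4. Duxbl1 moved most, to -3.37 with the mean log2 CPM and -3.05 with the pseudocount. No member changed direction, but each had already passed a change of more than 2-fold, so this tests nothing. There was no higher member, so the planned median over higher members has no value. No paired analysis was possible because the tables give only group means, which also leaves fits without a replicate not run. The depth limits the 4 members under 10 reads in ERα-/-.GFP+.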
